A study of Mus musculus with 30 samples.

Results

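The subunits of the receptors for glutamate, GABA and glycine were followed at the mRNA level in the stroke-denervated cervical spinal cord of mice. Members were chosen by gene symbol alone, as the rows whose symbols name an AMPA (Gria), kainate (Grik), delta (Grid), NMDA (Grin), metabotropic glutamate (Grm), GABA-A (Gabra, Gabrb, Gabrg, Gabrd, Gabre, Gabrq), GABA-B (Gabbr) or glycine receptor subunit (Glra, Glrb). Of 16995 genes, 44 were members, with 4 AMPA, 5 kainate, 2 delta, 7 NMDA, 7 metabotropic glutamate, 13 GABA-A, 2 GABA-B and 4 glycine receptor genes. Symbols of the same kind that have no row (Gabra6, Gabrd, Glra4 and Grm6) were not analysed here. No value of the 44 members was 0 in any animal.

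RNA came from the intermediate laminae at C5/C6 on the denervated side of adult female C57BL/6 mice. Sham animals (labelled Ctrl, n = 5) had the surgery without illumination of the skull, and stroke animals had a photothrombotic lesion of the right sensorimotor cortex and were taken at 4 dpi (n = 4), 7, 14, 28 or 42 dpi (n = 5 each). The study used females only for this part and picked the sequenced animals from a larger number operated, by lesion, motor deficit, dissection and RNA quality. Tissue was trimmed by blade and sequenced in bulk, so that fewer cells of a type and less RNA per cell cannot be told apart. The table has no column for 1 further 4 dpi animal, and the methods state that an animal of that group was left out as an outlier in the differential expression test, so the spread at 4 dpi is that of a group trimmed on its outcome.

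Fast excitation in the spinal cord runs through AMPA, kainate and NMDA receptors, which are cation channels assembled from several subunits, and fast inhibition runs through GABA-A and glycine receptors, which are chloride channels. Each NMDA receptor needs the Grin1 product, and the Grin2 subunit beside it sets how long the channel stays open. In glycine receptors the alpha subunits bind the transmitter and the beta subunit (Glrb) holds the receptor at the synapse. Metabotropic glutamate and GABA-B receptors signal through G proteins.

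Values are the authors' normalized CPM (reads scaled to library size and between animals, which do not add up to the same total in each animal and summed to 777344 to 818510 in sham and 790540 to 2256910 at 28 dpi), and differences between groups are given on the scale of log2(CPM + 0.5), with the SE of the fit. Passed means a Benjamini-Hochberg adjusted p under 0.05 in 1 limma fit of all 29 animals, adjusted over all 16995 genes. SDEGs here had in addition a fold change above 1.5 in either direction (0.58 on the log2 scale). The paper states its own limit for SDEGs as 1.5 on the log2 scale. No member reached that, the largest difference being 0.84. The depth behind the values is unknown, and all errors given here are spreads between animals. The tissue carried neuronal markers in every animal (15 of 15 genes measured, with summed CPM from 5958 to 8660). Residual ribosomal RNA differed widely: the value of the 18S gene Rn18s-rs5 lay between 30321 and 52929 in sham animals and between 44755 and 779160 at 28 dpi. Directions below are those of the authors' scaling. In an alternative in which the values of each animal, ribosomal RNA included, were set to 1 common sum, the median gene shifted by -0.75 at 28 dpi against sham, by -0.25 at 28 dpi against 14 dpi and by 0.22 at 42 dpi against 28 dpi, and all 44 members then had a negative difference at 28 dpi against sham.

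To show how far the transcripts differ in base composition, which moved with the results described further on, 90 coding bases are given for 5 members whose levels changed at 28 dpi, 3 higher and 2 lower than sham. Each stretch is the middle of the longest coding exon (GENCODE M21 transcripts, GRCm38), written 5′ to 3′ on the coding strand, which is the minus strand for all 5, with G and C in capitals. They lie in exon 12 of 12 of Grin2d at chr7:45833391-45833480, exon 9 of 11 of Grm4 at chr17:27434956-27435045, exon 9 of 9 of Glra1 at chr11:55514915-55515004, exon 9 of 9 of Glra2 at chrX:165130380-165130469 and exon 9 of 10 of Glrb at chr3:80851010-80851099.
Grin2d: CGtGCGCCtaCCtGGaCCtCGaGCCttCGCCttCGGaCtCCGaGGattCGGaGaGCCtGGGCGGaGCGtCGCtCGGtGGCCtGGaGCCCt
Grm4: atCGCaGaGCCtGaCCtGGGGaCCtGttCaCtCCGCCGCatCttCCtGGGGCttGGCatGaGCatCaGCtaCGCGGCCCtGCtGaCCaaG
Glra1: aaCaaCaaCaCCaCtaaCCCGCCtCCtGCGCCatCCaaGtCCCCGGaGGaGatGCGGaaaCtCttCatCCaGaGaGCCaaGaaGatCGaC
Glra2: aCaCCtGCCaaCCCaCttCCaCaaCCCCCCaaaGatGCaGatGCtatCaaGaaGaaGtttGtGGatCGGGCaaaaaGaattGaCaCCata
Glrb: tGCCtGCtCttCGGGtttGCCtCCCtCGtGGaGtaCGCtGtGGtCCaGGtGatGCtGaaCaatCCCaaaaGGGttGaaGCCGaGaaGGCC
G and C made up 63 of the 90 bases in Grin2d, 57 in Grm4, 50 in Glra1, 42 in Glra2 and 52 in Glrb. Over the whole transcript the GC content was 65.0% in Grin2d, 61.7% in Grm4, 52.7% in Glra1, 41.3% in Glra2 and 40.8% in Glrb, so that the window of Glrb was far richer in G and C than its transcript. Of the other members described at length, the files place Grin2b on the minus strand at chr6:135713233-136173511, Grik5 on the minus strand at chr7:25009849-25072346 and Gria3 on the plus strand at chrX:41400854-41678601 (mm10). The GC content of their transcripts was 45.7% in Grin2b, 62.3% in Grik5 and 43.0% in Gria3. Grin2b and Gria3, both higher at 28 dpi, thus lay under the median of the 44 members (46.5%).

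In sham animals the glycine receptor led. Per kb of the longest coding transcript, Glrb had a CPM of 106 ± 8.93 (SD, n = 5) and Glra1, the adult alpha subunit, 79.5 ± 8.94, while Glra3 had 2.26 ± 0.367 and Glra2, the form that prevails before birth, 1.95 ± 0.155. The lowest sham value of Glrb (95.7 per kb) lay above the highest of Glra1 (91.0), whereas those of Glra3 and Glra2 overlapped. Among GABA receptors the GABA-B subunit Gabbr1 stood highest at 61.5 ± 2.00 per kb, above the GABA-A subunits Gabra5 (17.9 ± 1.48) and Gabra3 (17.8 ± 1.24), which overlapped each other. Gabre, at 0.218 ± 0.0535 per kb, was the lowest of the 44.

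The glutamate receptor genes spanned a similar range of levels in sham animals. Gria4 (36.9 ± 2.62 per kb) led the AMPA subunits, which form the fast excitatory channel, above Gria3 (17.6 ± 0.487), Gria1 (14.3 ± 1.31) and Gria2 (13.4 ± 1.10), the last a pair whose values overlapped. Grin1, the obligatory NMDA subunit, had 36.7 ± 1.42 per kb, well above Grin2a (8.85 ± 0.955) and Grin3a (8.77 ± 1.15), which overlapped each other, and above Grin2b (4.34 ± 0.426). Grin2d was the lowest NMDA subunit (1.83 ± 0.158 per kb), in an overlap with Grin3b. Kainate subunits lay between 2.59 (Grik3) and 5.70 (Grik5) per kb, each overlapping the next in order. Grm3 (12.8 ± 1.88), Grm5 (11.5 ± 1.78) and Grm7 (10.7 ± 0.804) overlapped at the top of the metabotropic receptors, and Grm2 was lowest at 0.259 ± 0.0918.

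**Figure D1:**
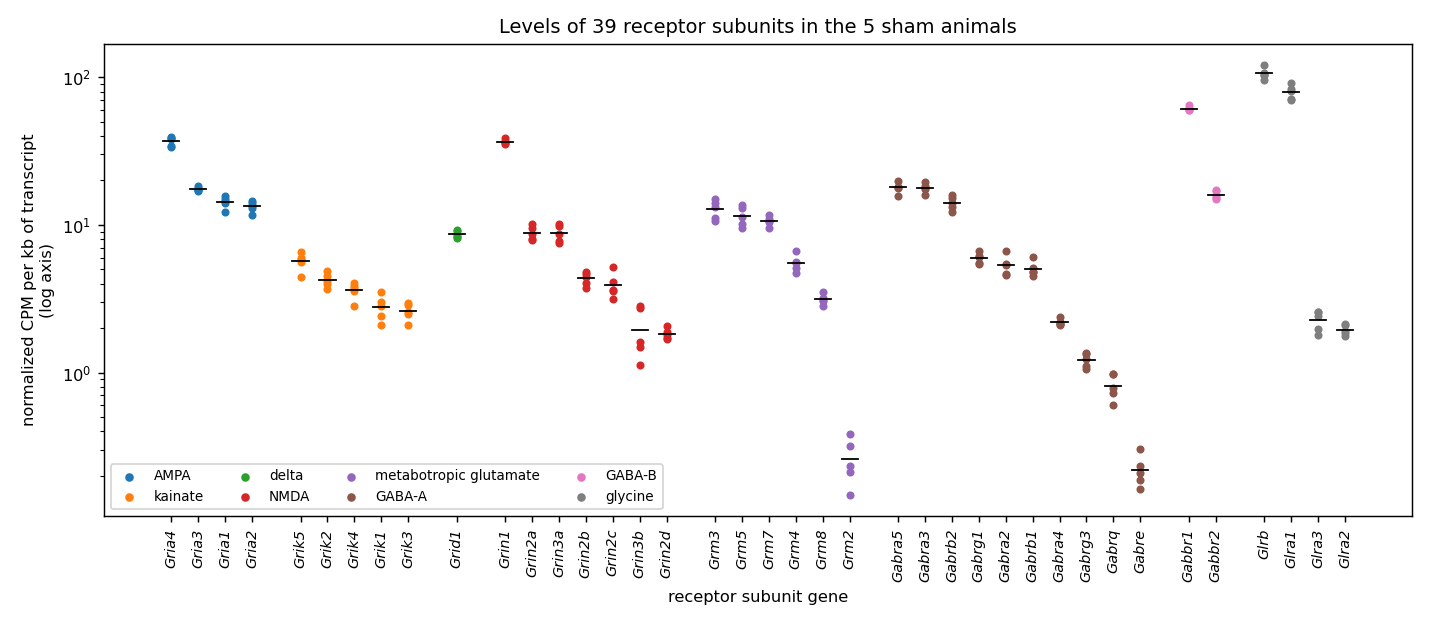
Normalized CPM per kb of transcript (log axis) of 39 of the 44 receptor subunits in the 5 sham animals, grouped by receptor family and ordered by mean within each. Points are animals and bars are means. Glrb and Glra1 stand highest, and Grm2 and Gabre lowest.

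At 28 dpi, 7 members were higher than sham (15.9%, beside 11.9% of all genes) and 5 were lower (11.4%, beside 13%). Of the 25 glutamate receptor genes 6 were higher and 0 lower, and of the 19 GABA and glycine receptor genes 1 was higher and 5 were lower, a difference between the families that was not tested. In all, 12 of 44 members passed (27.3%), beside 24.9% of all genes, so that the share of members that changed was near the background. At an unadjusted limma p under 0.05 there were 16 (36.4%, beside 38.5%). The median log2 difference was 0.15 over the glutamate genes and -0.13 over the GABA and glycine genes, with -0.0048 over all genes. After a correction of each animal for transcript length and GC content these medians were 0.02, -0.16 and -0.04. With ribosomal RNA included in a common sum, these medians were -0.64, -0.86 and -0.73, all negative, with the glutamate genes still above the median of all genes and the GABA and glycine genes still below it. Only 1 member was an SDEG, Grin2d (2.27% of members, beside 4.64% of all genes).

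The highest rises were in NMDA receptor subunits. Grin2b, the subunit that prevails early in development and gives slow currents, had a CPM of 107.1, 114.9, 90.6, 112.4 and 97.5 in the sham animals and 126.9, 176.5, 131.1, 160.5 and 169.4 at 28 dpi. Every 28 dpi animal lay above every sham animal. Its log2 difference was 0.54 ± 0.11 (SE, limma, Benjamini-Hochberg adjusted p = 0.00187), and 0.15 (0.0874) after each animal was corrected for GC content and transcript length, where it did not pass. Its transcript, at 24060 bases, is the longest of the 44. Grin2d, a subunit of very slow NMDA currents, had 9.3, 10.2, 9.2, 11.3 and 9.7 in sham and 11.4, 18.4, 15.6, 15.3 and 16.1 at 28 dpi, where the lowest animal was just above the highest sham animal. Grin2d was 1.51-fold higher (log2 difference 0.59 ± 0.13, limma, Benjamini-Hochberg adjusted p = 0.00356), which is at the fold limit for an SDEG. No member was an SDEG when sham A11-1, A12-1 or A12-3 or 28 dpi A3-3 or A4-4 was left out, and 3 were without 28 dpi A3-1. Grin2a, the main mature partner of Grin1, had a log2 difference of 0.24 (95% interval 0.05 to 0.43, limma, Benjamini-Hochberg adjusted p = 0.0551) and did not pass. Grin1 itself did not pass either, with an interval from -0.0096 to 0.30. All 7 NMDA subunits had a positive difference, and all 7 a negative one with ribosomal RNA included in a common sum.

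Among AMPA subunits only Gria3 passed. It had 89.9, 94.9, 90.1, 92.7 and 88.6 in sham and 110.7, 111.6, 105.7, 109.4 and 117.0 at 28 dpi, so that the groups were apart with narrow ranges. The log2 difference was 0.28 ± 0.072 (limma, Benjamini-Hochberg adjusted p = 0.00722), a call that was lost with the same sum without ribosomal RNA and with the 18S covariate. Gria2, the subunit that keeps calcium out of the AMPA channel, had values of 121.2 to 150.5 in sham and 124.0 to 147.9 at 28 dpi, an interval of the difference from -0.14 to 0.12. Gria4, the most abundant one, had an interval from -0.21 to 0.03.

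Of the 5 kainate receptor genes, whose products act on both sides of the synapse, the 2 that encode high-affinity subunits passed. Grik4 had 21.9, 22.7, 21, 23.9 and 16.7 in sham and 23.7, 32.8, 22.8, 26.2 and 28.6 at 28 dpi (log2 difference 0.33 ± 0.096, limma, Benjamini-Hochberg adjusted p = 0.0151). Grik5 had 22.2, 22.5, 16.7, 21.1 and 24.8 in sham and 24.5, 28.2, 35.4, 24.5 and 29.9 at 28 dpi (0.40 ± 0.12, limma, Benjamini-Hochberg adjusted p = 0.0199). In both genes the 28 dpi animals with the lowest values fell within the sham range. Grik1, Grik2 and Grik3, which encode low-affinity subunits, did not pass, with log2 differences between 0.07 and 0.24. The call of Grik4 was lost in a fit of the 2 groups alone, with the 18S covariate and after the corrections that include length, and without sham A12-3 or 28 dpi A3-3. That of Grik5 was lost with the same sum without ribosomal RNA and with the 18S covariate, and without sham A12-1 or 28 dpi A4-1.

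Of the metabotropic glutamate receptors, Grm4, a presynaptic receptor that lowers transmitter release, was the one that passed. Its values were 25.7, 30.6, 21.7, 25.4 and 23.4 in sham and 26.0, 34.3, 31.7, 36.3 and 40.9 at 28 dpi. Of the 5 animals at 28 dpi, 4 were above the sham range. The log2 difference was 0.40 ± 0.10 (limma, Benjamini-Hochberg adjusted p = 0.00719). Grm5, the metabotropic gene with the highest CPM in sham before division by length, had 76.9 to 109.6 in sham and 74.3 to 100.7 at 28 dpi (interval -0.30 to 0.18), and Grid1, a delta receptor gene that belongs to the glutamate receptor family by sequence, had a log2 difference of 0.13 that did not pass.

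Of the 13 GABA-A receptor genes 3 were lower at 28 dpi and 0 higher (all genes 13% and 11.9%), and 10 did not pass, 4 of them with a positive difference. Among them, Gabrg1 had a CPM of 26.5, 29, 31.6, 26.0 and 29.5 in sham and 22.3, 27.9, 22.8, 24.4 and 26.0 at 28 dpi. The groups overlapped, with 3 of 5 animals at 28 dpi under the sham range, and Gabrg1 fell by 0.21 ± 0.075 on the log2 scale (limma, Benjamini-Hochberg adjusted p = 0.0426). This call passed in 8 of 13 other settings and was lost under quantile normalization, median centring, no trend, a fit of the 2 groups alone and the 18S covariate, and without any 1 of sham A11-4, A12-1 and A12-3 and 28 dpi A3-1, A4-1 and A4-3. Gabrb1 was positive at 0.19 (interval 0.04 to 0.35) and Gabra5, the alpha subunit of extrasynaptic receptors, negative at -0.18 (interval -0.32 to -0.04), and neither passed. The GABA-B genes Gabbr1 (interval -0.13 to 0.08) and Gabbr2 (-0.07 to 0.31) did not pass.

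Glycine receptor genes changed in both directions. Glra1 had 194.4, 217.6, 166.9, 200.6 and 170.0 in sham and 199.8, 268.9, 197.8, 247.2 and 284.9 at 28 dpi, where 3 of 5 animals were above the sham range, and its log2 difference was 0.33 ± 0.099 (limma, Benjamini-Hochberg adjusted p = 0.0179). Glrb had 290.0, 316.4, 364.5, 314.0 and 322.6 in sham and 287.8, 248.9, 262.4, 251.5 and 266.5 at 28 dpi. All 5 lay under the sham range, by a narrow margin for the animal at 287.8, and Glrb fell by 0.28 ± 0.060 (limma, Benjamini-Hochberg adjusted p = 0.00232). Glra2 had 6.0, 6.6, 5.6, 5.8 and 6.7 in sham and 6.2, 3.0, 4.1, 3.4 and 5.5 at 28 dpi, and it fell by 0.47 ± 0.16 (limma, Benjamini-Hochberg adjusted p = 0.0314). The Glra2 value of 1 animal at 28 dpi (A3-1) sat inside the sham range. The calls of Glra1 and Glra2 were lost in a fit of the 2 groups alone and with the 18S covariate, that of Glra1 also without any 1 of sham A12-1 and A12-3 and 28 dpi A3-3 and A4-4, and that of Glra2 without any 1 of sham A11-4, A12-1 and A12-3 and 28 dpi A3-3 and A4-3.

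**Figure D2:**
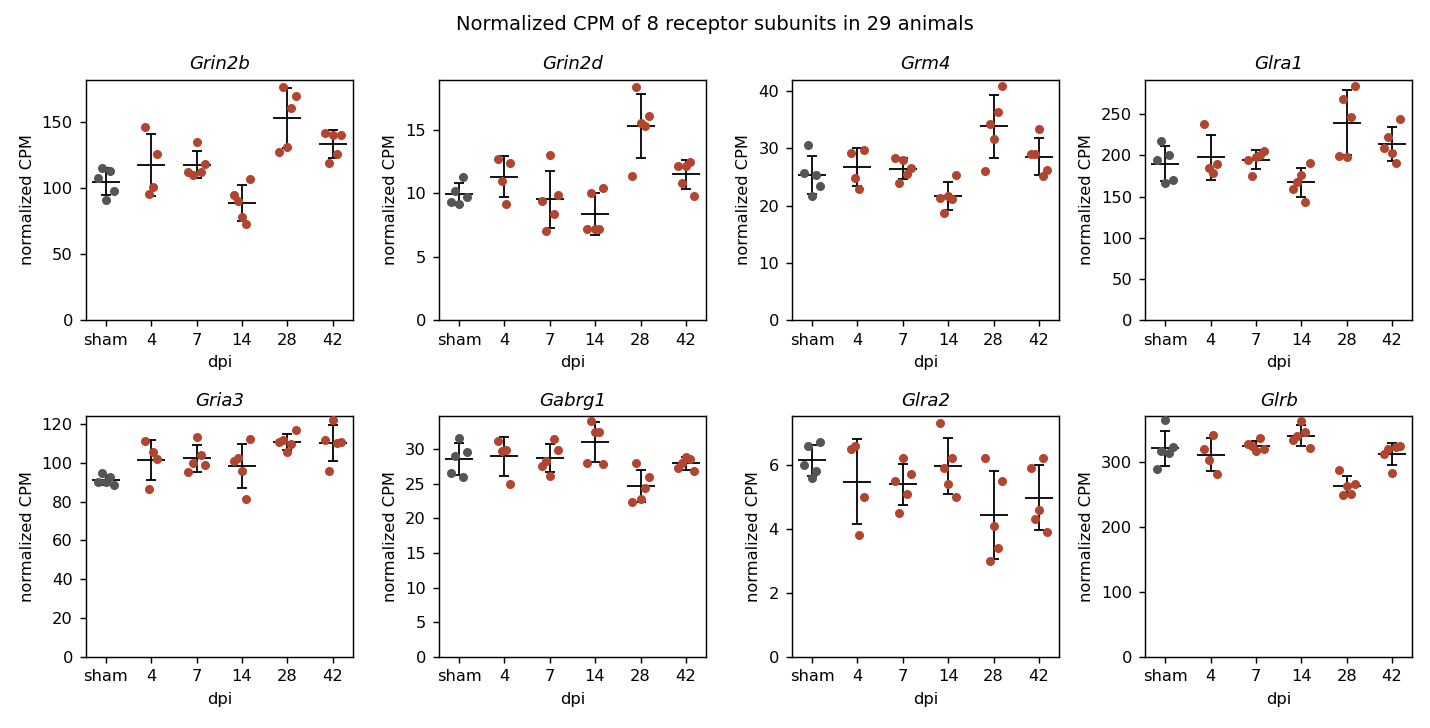
Normalized CPM (linear axes from 0) of 8 subunits in each of the 29 animals, with sham in grey, stroke groups in red, and bars for the mean and SD. Under the authors' scaling Grin2b, Grin2d and Gria3 at 28 dpi lie above all sham animals, and Glrb below them. With ribosomal RNA included in a common sum, all 8 differences at 28 dpi against sham were negative.

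Groups without overlap were few. At 28 dpi, 3 members were higher in every stroke animal than in every sham animal (6.82%, beside 6.15% of all genes) and 2 were lower (4.55%, beside 3.75%). At the early time points, 0 members passed at 4, 7 and 14 dpi, where 0.106%, 0.0294% and 0.00588% of all genes did. At an unadjusted limma p under 0.05 there were 0 members at 4 dpi (5.14% of all genes), 3 at 7 dpi (5.84%) and 3 at 14 dpi (11.6%). Gria3 was above sham in all 5 animals at 7 dpi, with 95.2 to 113.2, and 0.388% of all genes were apart in this way. Its log2 difference at 7 dpi was 0.16 (interval 0.01 to 0.31) and it did not pass.

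At 42 dpi against sham 0 members passed (0.0235% of all genes did), with 5 at an unadjusted limma p under 0.05 (11.4%, beside 14.8%). In 3 members, Gria3 (95.7 to 121.8) and Grin2b (118.6 to 141.6) among them, each 42 dpi animal was nevertheless higher than each sham animal (6.82%, beside 2.21% of all genes). Their log2 differences were 0.27 for Gria3 (limma, Benjamini-Hochberg adjusted p = 0.107) and 0.35 for Grin2b (0.134).

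More members passed between 14 and 28 dpi, a comparison that shares its 28 dpi animals with the one above. Of 44 members, 24 passed (54.5%, beside 43% of all genes), 18 higher (40.9%, beside 21%) and 6 lower (13.6%, beside 21.9%), and the 4 SDEGs (9.09%, beside 11.8%) were all higher at 28 dpi. With ribosomal RNA included in a common sum, 0 members passed. Of the glutamate receptor genes 14 of 25 were higher and 0 lower, with a median of 0.23, and of the GABA and glycine genes 4 of 19 were higher and 6 lower, with a median of -0.02, beside 0.02 over all genes. After the correction for length and GC content 17 members passed (38.6%, beside 39.1% of all genes). Of the glutamate receptor genes 4 were then higher and 3 lower, and of the GABA and glycine genes 1 was higher and 9 were lower. The medians of these families and of all genes were then 0.05, -0.18 and -0.04. Set to a common sum with ribosomal RNA, the 2 medians were -0.03 and -0.29, beside -0.22 over all genes.

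The 4 SDEGs of this step were Grin2d, Grin2b, Grm4 and Grik5. Grin2b had 94.9, 90.2, 78.1, 73.0 and 106.3 at 14 dpi, all under the lowest 28 dpi value of 126.9 (log2 difference 0.79 ± 0.11, limma, Benjamini-Hochberg adjusted p = 1.58e-05). Grin2d had 7.2 in 3 animals at 14 dpi and at most 10.4 in the others, likewise under all 28 dpi values (0.84 ± 0.13, limma, Benjamini-Hochberg adjusted p = 4.25e-05). Both genes stood lower at 14 dpi than in sham on average, at -0.25 each, without passing. Grm4 had 21.4, 18.8, 21.7, 21.1 and 25.4 at 14 dpi (0.62 ± 0.10, limma, Benjamini-Hochberg adjusted p = 5.37e-05), and Grik5 had 17.5, 21, 15.4, 16.8 and 22.4 (0.60 ± 0.12, limma, Benjamini-Hochberg adjusted p = 0.000348), again with no overlap with 28 dpi. With ribosomal RNA included in a common sum, their differences were between 0.34 and 0.58 and did not pass. After the correction for length and GC content Grin2d was at 0.56, Grik5 at 0.49, Grm4 at 0.46 and Grin2b at 0.19, all of which passed by limma but with a fold change under 1.5.

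Other glutamate receptor genes passed this step with smaller differences. Among them were Grik3 (0.44), Grin2a (0.43), Grik4 (0.33), Grin3a (0.28), Grid1 (0.27), Grik2 (0.26), Grin1 (0.23), Grm7 (0.19) and Gria3 (0.18). None of these 9 passed after the correction for length and GC content (limma, Benjamini-Hochberg adjusted p from 0.12 to 0.959), where Grik2 and Grin2a had negative differences (-0.0904 and -0.0140). Grin2a was higher in each 28 dpi animal (128.7 to 173.5) than in each 14 dpi animal (98.7 to 125.1). Grin3a encodes an NMDA subunit that lowers calcium entry, and Grm7 a presynaptic receptor of low affinity. The Gria3 call in this step passed in 6 of 13 other settings. It was lost without any 1 of 14 dpi A5-1, A5-4 and A6-2 and 28 dpi A3-1, A3-3, A4-3 and A4-4. That of Grm7 passed in 9 of 13, and was lost without any 1 of 14 dpi A5-4 and A6-2 and 28 dpi A3-3 and A4-3. Those of Grik2, Grin1 and Grin3a were each lost without at least 1 animal. In all, 7 members were higher without overlap (15.9%, beside 10.2% of all genes) and 2 lower (4.55%, beside 11.8%).

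GABA and glycine receptor genes again went both ways from 14 to 28 dpi. Glra1 rose from 158.9, 167.5, 176.8, 143.2 and 190.6 to the 28 dpi values above, with no overlap (log2 difference 0.51 ± 0.099, limma, Benjamini-Hochberg adjusted p = 0.000208). Glrb, at 333.7, 339.9, 363.2, 346.9 and 321.0 at 14 dpi, fell by 0.37 ± 0.060 (limma, Benjamini-Hochberg adjusted p = 4.25e-05), again without overlap. Other members that were lower included Glra2 (-0.42), Gabrg1 (-0.32) and Gabra5 (-0.31). The Glra2 call in this step was lost under median centring and in a fit of the 2 groups alone, and without any 1 of 14 dpi A5-1, A5-3 and A6-2 and 28 dpi A3-3, A4-1 and A4-3. Higher at 28 dpi were Gabrg3 (0.33), Gabrb1 (0.33), with 71.0 to 85.6 against 58.8 to 68.9, and the GABA-B subunit Gabbr2 (0.30). None of these 3 passed after the correction for length and GC content, at 0.01, -0.0931 and 0.13.

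**Figure D3:**
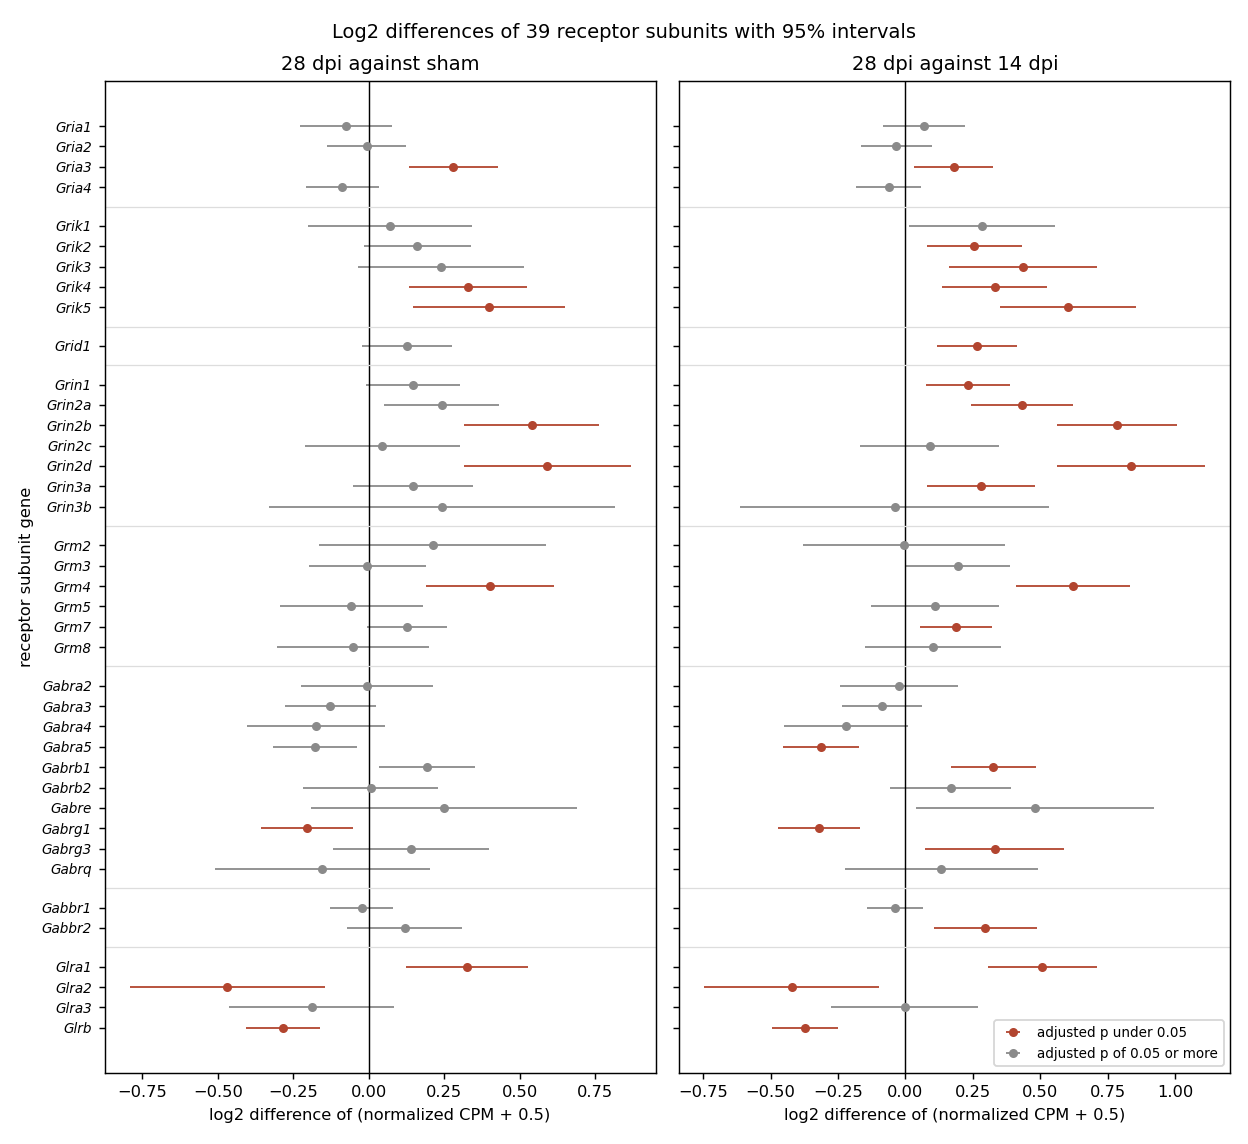
Log2 differences of 39 of the 44 subunits at 28 dpi against sham (left) and against 14 dpi (right), with 95% intervals from limma and lines between receptor families. Red points have an adjusted p under 0.05. Red points above zero are mostly glutamate receptors and those below zero are all GABA-A or glycine receptors, whereas with ribosomal RNA included in a common sum all 44 differences from sham were negative.

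From 28 to 42 dpi 1 member passed (2.27%, beside 1.94% of all genes) and 0 were SDEGs (0.224% of all genes), with 10 at an unadjusted limma p under 0.05 (22.7%, beside 21.1%). The member that passed was Glrb, which at 42 dpi had 311.8, 320.1, 282.5, 323.0 and 325.3, with 1 animal inside the 28 dpi range (log2 difference 0.25 ± 0.060, limma, Benjamini-Hochberg adjusted p = 0.0346). It passed in 7 of 13 other settings, where its adjusted p by limma ran from 0.0202 to 0.168, and not under median centring, with the same sum without ribosomal RNA, without the trend, in a fit of the 2 groups alone or after the corrections that include GC content. It was also lost without any 1 of 28 dpi A3-3, A4-3 and A4-4 and 42 dpi A1-1, A1-2, A1-4 and A3-4. Gabra5 (0.22, limma, Benjamini-Hochberg adjusted p = 0.0789) and Grin2d (-0.39, 0.101) did not pass. The glutamate receptor genes had a median of -0.13 in this step, with 22 of 25 negative, and the GABA and glycine genes a median of 0.11, with 12 of 19 positive. With ribosomal RNA included in a common sum, 23 of 25 and 19 of 19 were positive. Without the 28 dpi animal A3-1, 6 members passed this step, and the share of all genes in that fit is not given. Over all 6 groups, 15 members differed by the limma F test (34.1%, beside 31.6% of all genes), led by Grin2b (Benjamini-Hochberg adjusted p = 0.000308).

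Ratios between the mRNA levels of subunits of the same receptor type were taken in each animal. They were chosen with the members' values known and are given without a test. The ratio of Grin2b to Grin2a was 0.763 to 0.889 in sham animals, 0.71 to 0.876 at 14 dpi, 0.925 to 1.09 at 28 dpi and 0.856 to 1.11 at 42 dpi, so that 28 dpi stood clear of sham and 14 dpi while 42 dpi did not. At 4 dpi (0.787 to 0.965) and 7 dpi (0.779 to 0.930) it overlapped both sham and 28 dpi. Glra1 to Glrb was 0.458 to 0.688 in sham, 0.413 to 0.594 at 14 dpi, 0.694 to 1.08 at 28 dpi and 0.591 to 0.751 at 42 dpi. The lowest 28 dpi animal was thus just above the highest sham animal, and under the highest at 4 dpi (0.744). Glra1 to Glra2 ranged from 25.4 to 34.6 in sham and from 32.2 to 89.6 at 28 dpi, with some overlap. A ratio within an animal does not change with the scaling of that animal. The ratios were not corrected for transcript length and GC content, which differ within the pairs. At 28 dpi against sham the log2 differences of Grin2b and Grin2a were 0.54 and 0.24, and 0.15 and -0.04 after that correction. Those of Glra1 and Glrb were 0.33 and -0.28, and 0.36 and -0.28 after it.

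**Figure D4:**
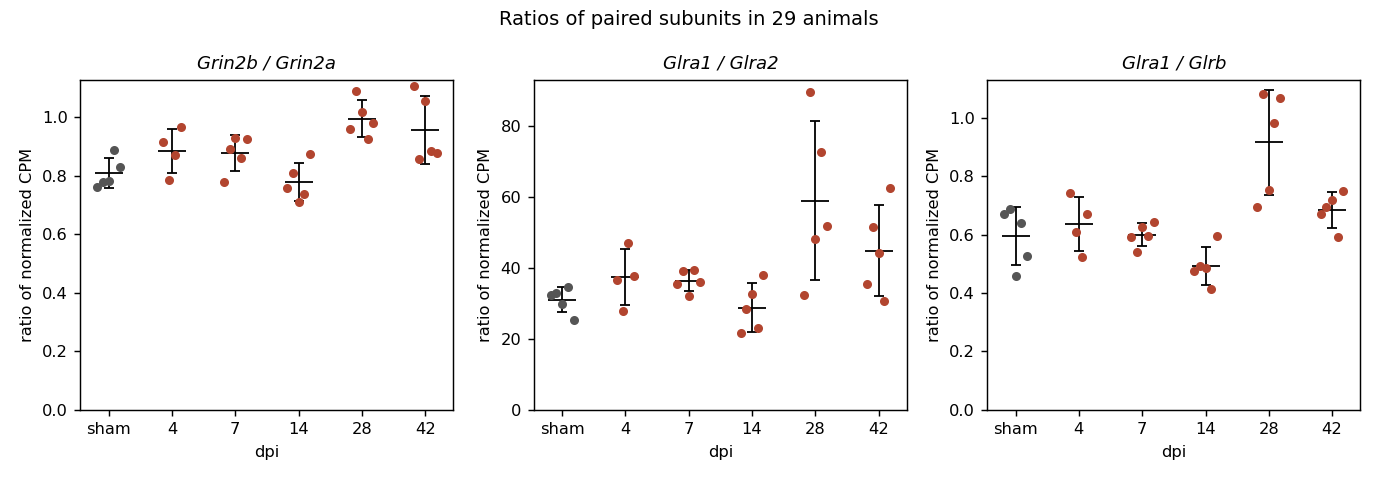
Ratios of normalized CPM (linear axes from 0) of 3 pairs of subunits in each animal, with bars for the mean and SD. Grin2b to Grin2a and Glra1 to Glrb lie above all sham animals at 28 dpi, and Glra1 to Glra2 overlaps with sham.

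Base composition and length of the transcripts moved with these differences. The 7 members that were higher at 28 dpi than sham had a median GC content of 52.7% (range 43.0 to 65.0), the 5 that were lower 40.0% (35.3 to 41.3), and all 44 46.5%. Across the 44 members, which are genes of the same libraries and not replicates, Pearson's r of GC content with the log2 difference was 0.63 at 28 dpi against sham and 0.53 at 28 dpi against 14 dpi. It was 0.48 within the 25 glutamate genes and 0.60 within the 19 GABA and glycine genes at 28 dpi against sham. Over 15425 genes it was -0.06. Transcript length gave r = 0.36 over the members and 0.27 over all these genes. The slope of an animal's log2 values on transcript length, per doubling, was 0.0016 to 0.14 at 28 dpi, -0.08 to -0.03 at 14 dpi and -0.07 to 0.07 in sham.

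After a correction of each animal for length and GC content, 14 members passed at 28 dpi against sham (31.8%, beside 25.8% of all genes), 5 higher and 9 lower, and 0 were SDEGs. Of the glutamate receptor genes 4 were then higher and 2 lower, and of the GABA and glycine receptor genes 1 was higher and 7 were lower. Grin2b was then at 0.15 (limma, Benjamini-Hochberg adjusted p = 0.0874) and Grik4 at 0.22 (0.0609), while Grin2d was at 0.47 (0.00499), Grm4 at 0.32 (0.0124), Glra1 at 0.36 (0.0211), Glrb at -0.28 (0.00156) and Gabrg1 at -0.39 (0.00268). Gria2 (-0.29, 0.00200), Gria4 (-0.17, 0.0136) and Glra3 (-0.43, 0.0134) then passed as lower. The relation of the members' differences to GC content was not removed by this correction (r = 0.77). At 28 dpi against 14 dpi 17 members passed after it (38.6%, beside 39.1% of all genes), 5 higher and 12 lower, again with 0 SDEGs, and Grin2b was at 0.19 (limma, Benjamini-Hochberg adjusted p = 0.0161) in place of 0.79.

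**Figure D5:**
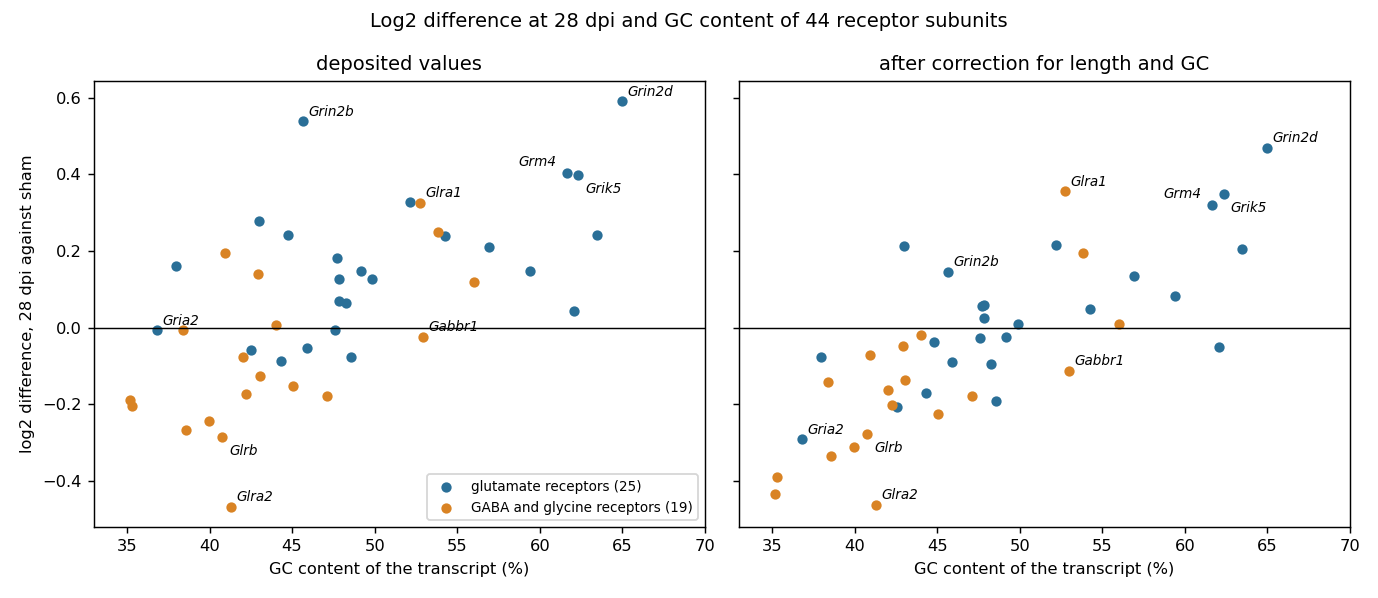
Log2 difference at 28 dpi against sham plotted on the GC content of the transcript for the 44 subunits, from the deposited values (left) and from those corrected for GC content and length (right). Members with more G and C have the higher differences in both panels, with r = 0.63 and 0.77. All 44 differences were negative with ribosomal RNA included in a common sum.

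With the 18S ribosomal RNA value of each animal as a covariate, 0 members passed at 28 dpi against sham by limma and 22 passed at 28 dpi against 14 dpi. The share of all genes that passed with this covariate is not given, so these counts cannot be set against a background. Grin2d had a log2 difference from sham of 0.46 in that fit, Grm4 0.41 and Glrb -0.26. Marker lists of the cells in the tissue also moved at 28 dpi against sham. Of 15 neuronal markers 1 was higher and 2 were lower (median -0.14, summed CPM 6237 to 8011 in sham and 6245 to 6610 at 28 dpi), of 7 oligodendrocyte markers 4 were lower (median -0.35, summed 6237 to 9282 and 4486 to 6605), of 8 astrocyte markers 1 was higher and 3 lower (summed 2656 to 3194 and 3031 to 3507), and of 5 endothelial markers 2 were higher (summed 71.2 to 99.1 and 79.6 to 136). Microglia had 1 of 7 higher (102.4 to 117.1 and 99.1 to 135.8), precursors of oligodendrocytes 1 of 5 lower (169.9 to 211.5 and 163.4 to 186.1), and of 6 motor neuron markers 0 passed (80.7 to 315.4 and 136.1 to 286.2). Of the ribosomal RNA list 6 of 8 genes were higher. At 28 dpi against 14 dpi 6 of 7 oligodendrocyte markers were lower (median -0.36, summed 6291 to 7799 at 14 dpi), 5 of 15 neuronal markers were lower and 2 higher (median -0.0485, summed 6950 to 8660 at 14 dpi, above the 28 dpi range), 3 of 7 microglial markers were lower (117.2 to 153.8 at 14 dpi) and 2 of 5 endothelial markers higher (67.8 to 99.8). Of 8 astrocyte markers 1 was higher and 1 lower in this step (2569 to 2873 at 14 dpi), of 5 oligodendrocyte precursor markers 1 was higher and 1 lower, of 6 motor neuron markers 0 passed, and of the ribosomal RNA list 3 of 8 were higher. The part of these in the receptor differences was not tested. Dorsal root ganglion markers (2 of 6 measured, summed 9.0 to 30.6 in sham and 6.9 to 16.4 at 28 dpi) and pituitary markers (3, summed 0.2 to 0.7 and 0.2 to 14.4) had 0 that passed.

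Several members share exonic sequence with a gene on the opposite strand, and the library kit does not mark strand, so that reads of the 2 genes cannot be told apart there. Grin1 overlaps Grin1os, which was higher at 28 dpi (1.60 in sham and 2.50 at 28 dpi, log2 difference 0.51, limma, Benjamini-Hochberg adjusted p = 0.0471). Gabrb1 and Gabra4 overlap each other. Grin2b, Grin2d and Glra1 overlap genes that have no row.

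Proteins that hold, traffic or assist these receptors were counted from a list of 55 genes, all measured. At 28 dpi against sham 13 were higher and 5 lower (23.6% and 9.09%, beside 11.9% and 13% of all genes), with a median log2 difference of 0.06, and 4 were SDEGs (7.27%, beside 4.64%), all higher. Among these were the scaffold genes Shank1 (CPM 46.0 in sham and 83.9 at 28 dpi, log2 difference 0.86 ± 0.16, limma, Benjamini-Hochberg adjusted p = 0.00145) and Dlgap2 (11.6 and 19.3, 0.67 ± 0.14) and the AMPA receptor auxiliary subunit Shisa6 (8.52 and 13.7, 0.65 ± 0.15). From 14 to 28 dpi 23 were higher and 7 lower (41.8% and 12.7%, beside 21% and 21.9% of all genes), with a median of 0.17. After the correction for length and GC content the partner medians were 0.01 at 28 dpi against sham and 0.03 from 14 to 28 dpi. Over all genes they were then -0.04 and -0.04. Corrected values of single partner genes are not given. The SDEGs of that step included Shank1 (1.06), Dlgap2 (0.75), Shisa7 (0.70), Shank2 (0.67) and Shisa6 (0.63), which were higher, and Cbln1 (-0.65), Gabarap (-0.64) and Nrn1 (-0.61), which were lower. Gabarap encodes a protein that binds GABA-A receptors and Cbln1 a ligand of delta receptors. Gabrr2, the only rho subunit with a row, had 0.2 to 1.4 in sham and 0.1 to 0.9 at 28 dpi and did not pass. With ribosomal RNA included in a common sum these directions were not examined gene by gene.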

How the data were processed

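Spinal RNA was ribo-depleted, made into libraries that do not mark strand (TruSeq RNA v2) and sequenced by the authors, who used SALMON on the mm10 transcriptome, summarised the estimates per gene with Tximport and normalized these with edgeR (3.14.0 per the labels, R 3.4.1). The deposited score values are normalized CPM rounded to 0.1 for 16995 genes, after removal of genes with low expression by the authors. They are not counts, and depth is unknown. The table's columns of the authors' own comparisons (fold changes, test statistics, p-values and calls) were not used. Groups come from the sample labels. Of 30 labelled animals, 29 have a column. No 2 columns were identical. The labels number each sample by animal, and p-values measure the spread between these animals.

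Values were tested as log2(value + 0.5) with limma 3.58.1 (R 4.3.3) in 1 fit of 6 groups with a mean-variance trend, 7 comparisons and an F test, two-sided, with Benjamini-Hochberg adjustment over 16995 genes. The members follow from the rule on gene symbols alone. The rule, the marker lists and the partner list were set with earlier results of these data known. Genes named are those that passed in any of the 7 comparisons (24) and, in each family, the member with the highest sham value and the one with the lowest adjusted p at 28 dpi, 28 in all, of which some are not reported here; counts and medians include them. Gria1, Gria2, Grik1, Grin3b, Grm2, Grm3, Gabra3, Gabra4, Gabre and Glra3 were chosen after their values were seen. Partner genes are named where they were SDEGs. Levels between genes are per kb of the longest protein-coding transcript in GENCODE M21, in which 16919 genes were found and 41 of 44 members have the start position of the table. Opposite-strand overlaps come from the same annotation. The correction for length and GC content fitted natural splines (5 degrees of freedom) to each animal's deviations from the gene means over genes with a mean of 1 or more, ribosomal RNA left out. The fit was tested on simulated data of the same group sizes, with 200 genes changed at 28 dpi. Of changes of 0.3 on the log2 scale 23.5% passed, with 3 false calls, and of changes of 0.6 76.5% passed, with 11. A member that did not pass may therefore still have changed. Alternatives were other scalings, pseudocounts, limits, covariates and fits, and leaving out each animal. Python 3.11.15, numpy 2.4.6 and pandas 2.3.3 were used.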

Additional observations from a re-analysis of the deposited data

Results flagged for a closer look

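In a group of 4 or 5 animals, 1 value stood far from the others by Dixon's limit in 3 of 144 groups tested (24 members in 6 groups), where chance gives about 1 in 20. Gria4 was 160.7 in a 28 dpi animal (A4-1), with 192.9 to 199.5 in the others. Grm7 was 39.3 in a 42 dpi animal (A1-1), with 47.0 to 49.4 in the others. Glra1 was 238.2 in a 4 dpi animal (A9-2), with 179.0 to 189.1 in the others.

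The effect of stroke against sham differed between 14 and 28 dpi, by the limma test of 28 dpi against 14 dpi with a fold change above 1.5, for Grin2d (0.84), Grin2b (0.79), Grm4 (0.62) and Grik5 (0.60). All 5 animals at 28 dpi were above all 5 animals at 14 dpi in each of the 4 genes. After the correction for length and GC content the differences were 0.56, 0.19, 0.46 and 0.49, and none was above a fold change of 1.5.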

How the results depend on the processing

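The 1 SDEG among the members at 28 dpi against sham became 12 with no fold limit and 10 with a limit of 1.2, and it became 0 with a pseudocount of 1, the same sum without ribosomal RNA, the 18S covariate, or a correction for length alone or for length and GC content (the last chosen after seeing the data). With the same sum including ribosomal RNA, 32 members were called, all lower. In that scaling the median of all genes was -0.73, and only 723 of 16995 genes had a positive difference. Apart from those printed above, shares of all genes are not given for the alternatives in this paragraph. The member counts here thus have no background beside them. Leaving out 1 animal gave 0 to 3 SDEGs (3 without the 28 dpi animal A3-1, 0 without sham A11-1, A12-1 or A12-3 or 28 dpi A3-3 or A4-4), while 7 (without sham A12-1 or A12-3) to 14 members passed. In a fit of the 2 groups alone 7 passed. For 28 dpi against 14 dpi the 4 SDEGs became 24 with no fold limit, 19 with a limit of 1.2, 2 with the same sum without ribosomal RNA, 0 with it included, 1 after correction for length and 0 for length and GC content, and 2 (without 28 dpi A4-4) to 5 when 1 animal was left out. Members that passed then numbered 18 (without 14 dpi A6-2) to 25. For 42 dpi against 28 dpi the count of 0 became 1 with no fold limit, and over the 6 groups the count of 15 became 37 with the same sum including ribosomal RNA, 10 with the 18S covariate and 12 to 19 when 1 animal was left out. At 4, 7, 14 and 42 dpi against sham the count was 0 in each alternative run, leaving out each animal included. From 14 to 28 dpi 4 members that had passed changed sign under the corrections that include length, without passing. Corrected for length, Grik2 was at -0.0727, Grin2a at -0.0217, Gabrb1 at -0.11 and Gabrg3 at -0.0068. Corrected for length and GC content, Grik2 was at -0.0904, Grin2a at -0.0140 and Gabrb1 at -0.0931. With the same sum including ribosomal RNA 4 that had passed changed sign in that step (Gria3 -0.0848, Grik2 -0.0071, Grin1 -0.0310 and Grm7 -0.0757), and 7 at 28 dpi against sham. The cause of these shifts was not tested. No paired analysis was possible because the animals' numbers are unique to each animal. The number before the dash in these labels (the unit, whose meaning is not given) is shared by several animals. Only unit 3 holds animals of 2 groups, 28 and 42 dpi. A difference from sham or from 14 dpi thus cannot be told apart from one between units, and a block for the unit cannot separate them. With the unit as a random block, 15, 25 and 3 members passed at 28 dpi against sham, 28 dpi against 14 dpi and 42 dpi against 28 dpi. The shares of all genes in that fit are not given.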
